A study of Homo sapiens with 2 samples.

Results

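The intermediate filament genes of C28/I2 cells and the RNAs annotated on their opposite strands were compared between a library with FGF9 shRNA and a control library. The set held 9 of the 58220 genes in the deposited tables and was chosen by name. It comprised 7 filament genes (VIM, SYNM, SYNC, KRT8, KRT18, NEFM and LMNB1) and the opposite-strand RNAs VIM-AS1 and AC036108.2. The genes were picked with their counts in the same 2 libraries known, so their levels and ratios are given as a description, with no test.

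C28/I2 is an immortalized human chondrocyte cell line. The shvoid library, labelled WT, came from cells given a lentivirus with a control shRNA, and the shFGF9-D1 library, labelled FGF9 knock down, from cells given the FGF9 shRNA of that name. Both cultures were therefore virus-infected, at a multiplicity of infection of 10, and total RNA was taken after 72 hours. There was 1 library per condition and 1 FGF9 shRNA, so there was no spread between cultures to set a difference against, and the shRNA and the culture cannot be told apart. Depth was low, with 519192 estimated counts in the shvoid and 502774 in the shFGF9-D1 library. Of all genes, 3595 and 3448 had at least 10 counts. FGF9 was counted 0 times in each, so its knockdown was not checked by these data. No fold was given where both counts were at or under a floor of 3 counts. This floor stands for 5.78 and 5.97 counts per 1e6 (CPM), provided the strand was read correctly. A strand-specific kit was used, but the sources do not say how strand was handled in counting. The level of a gene and that of an overlapping gene on the opposite strand are therefore uncertain wherever both are annotated. Counts of genes with no such partner, LMNB1 among them, also hold only if the strand was read correctly.

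The cell type label could not be checked well from these counts, since some genes that most cells use were also at 0 or low. TUBB and ACTN4 had 0 counts in both libraries, and ACTG1, or gamma-actin, had 19 and 12. They belong to a list of 21 actin and tubulin genes, of which 12 reached 10 counts, MYL6 with 515 and 464 and ACTB with 47 and 31 among them. Whether depth or strand handling left TUBB, ACTN4 and ACTG1 low was not tested. Of 17 chondrocyte markers, 10 had a count and 3 reached 10 counts, and the defining cartilage collagen COL2A1 was at 0 in both libraries together with COL11A1, COL11A2, COMP, HAPLN1, SOX5 and CNMD. The marker list summed to 57 counts in the shvoid and 45 in the shFGF9-D1 library. MATN1, a cartilage matrix protein, had 16 and 12 counts, PRG4 or lubricin had 11 and 12, CHAD had 17 and 16, and ACAN, the core protein of aggrecan, had 5 and 0. Lists for other cell types summed to 75 and 54 counts (epithelial, 10 genes), 49 and 29 (muscle, 7 genes, of which TTN gave 47 and 29), 20 and 31 (fibroblast, 9 genes) and 14 and 20 (neuronal, 9 genes). EPCAM, CDH1 and KRT14 for epithelium and DES, MYOD1 and MYOG for muscle were at 0 in both libraries. So were the fibroblast markers COL1A2, PDGFRA, THY1, DCN, LUM and FAP. CLDN4, an epithelial tight junction protein, had 50 and 41 counts, and ESRP2, an epithelial splicing regulator, had 24 and 11. The collagen gene COL1A1 had 19 and 26, most of the fibroblast total. The part of other cell types in the results below was not tested.

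Intermediate filaments are rope-like polymers that give cells mechanical strength, built from coiled-coil rod proteins. Vimentin (VIM) is the filament of mesenchymal cells, chondrocytes among them, and synemin (SYNM) and syncoilin (SYNC) are large or divergent members that join filaments built from other subunits. KRT8 and KRT18 form the obligate keratin pair of simple epithelium, NEFM is a neurofilament subunit of nerve cells, and LMNB1 encodes lamin B1, part of the meshwork under the nuclear envelope.

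Apart from LMNB1, each of these genes shares exon sequence with a gene on the other strand, in GENCODE release 29 on GRCh38. The sequences shown here are stretches of shared exon in the 4 pairs that the results turn on, since a read from either RNA lies at the same position and differs only in its strand. They were read from GENCODE 29 transcripts and are written 5′ to 3′ along each RNA, with shared exon in capitals and the following bases of the first gene in lower case. VIM and VIM-AS1 share 641 exon bases in 1 block, of which 563 code for vimentin. The block ends where a VIM exon ends, which is also where VIM-AS1 starts. Its last 60 bases, chr10:17229926-17229985, read on the plus strand for VIM and on the minus strand for VIM-AS1:
VIM: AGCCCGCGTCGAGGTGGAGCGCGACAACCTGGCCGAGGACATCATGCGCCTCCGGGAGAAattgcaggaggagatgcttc
VIM-AS1: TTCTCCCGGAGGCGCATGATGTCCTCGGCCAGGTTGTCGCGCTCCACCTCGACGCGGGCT
The lower-case end of the VIM line is the next exon of the spliced mRNA.

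SYNM and AC036108.2 share 2027 exon bases in 2 blocks, all of them coding in SYNM. The 60 bases at the start of AC036108.2, chr15:99131747-99131806, lie on the plus strand in SYNM and on the minus strand in AC036108.2:
SYNM: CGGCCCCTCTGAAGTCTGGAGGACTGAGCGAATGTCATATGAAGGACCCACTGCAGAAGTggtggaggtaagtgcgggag
AC036108.2: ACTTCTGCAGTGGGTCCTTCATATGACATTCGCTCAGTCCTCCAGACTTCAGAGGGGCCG
KRT18 and KRT8 lie head to head on chromosome 12 and share 525 exon bases in 2 blocks. Of these, 30 are shown from chr12:52949216-52949245, on the plus strand in KRT18 and on the minus strand in a short KRT8 transcript:
KRT18: TCCCTGGGCTCTGTCCAGGCGCCCAGCTAC
KRT8: GTAGCTGGGCGCCTGGACAGAGCCCAGGGA
SYNC shares 1706 exon bases in 3 blocks with RBBP4, which encodes a histone-binding subunit of chromatin complexes. The 30 bases shown, chr1:32684353-32684382, lie on the minus strand in SYNC and on the plus strand in RBBP4:
SYNC: GAACAGCTGGAGGAAATGGAAGAACGCCAG
RBBP4: CTGGCGTTCTTCCATTTCCTCCAGCTGTTC

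**Figure D1:**
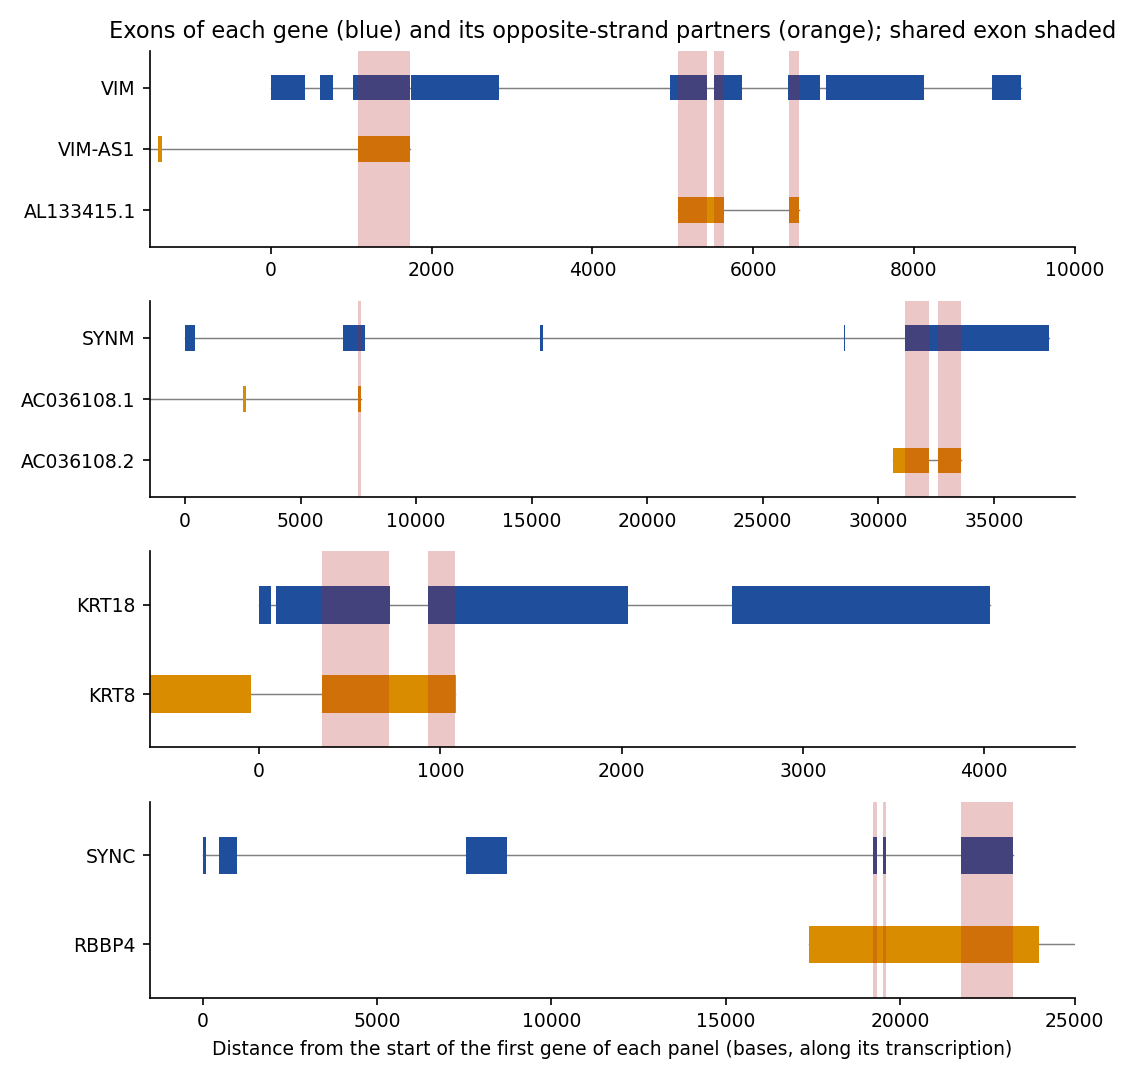
Exons of VIM, SYNM, KRT18 and SYNC (blue) and of the genes opposite them (orange), each panel in bases from the start of its first gene along its transcription, with shared exon shaded and genes cut at the panel edge. Shared exon covers 641 bases of VIM and VIM-AS1, 2027 of SYNM and AC036108.2, 525 of KRT18 and KRT8, and 1706 of SYNC and RBBP4.

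Across the set, 1 gene was higher in the shFGF9-D1 library and 3 were lower by the rule used for all genes, which asked for 10 or more counts in a library, a difference of 2-fold or more and an exact 95% interval that left out equal levels. LMNB1 was the gene called higher, SYNC, AC036108.2 and NEFM were called lower, and VIM, VIM-AS1, SYNM, KRT8 and KRT18 were not called. Of the 4000 genes that reached 10 counts, the same rule called 188 higher (4.70%) and 215 lower (5.38%). All 9 genes of the set reached 10 counts, but the set was chosen on these values, so nothing is read from its share. With DESeq2 size factors the rule called 148 genes higher and 257 lower, and the calls in the set stayed at 1 higher and 3 lower. With a minimum of 50 counts, or in an edgeR exact test that assumed a coefficient of variation of 0.1, the set had 0 higher and 2 lower, and with 0.4 it had 0 of each. Ratios are of counts scaled by the trimmed mean of M-values (TMM), and their intervals cover counting error only. In bulk RNA, fewer cells that express a gene and less of its RNA per cell cannot be told apart.

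**Figure D2:**
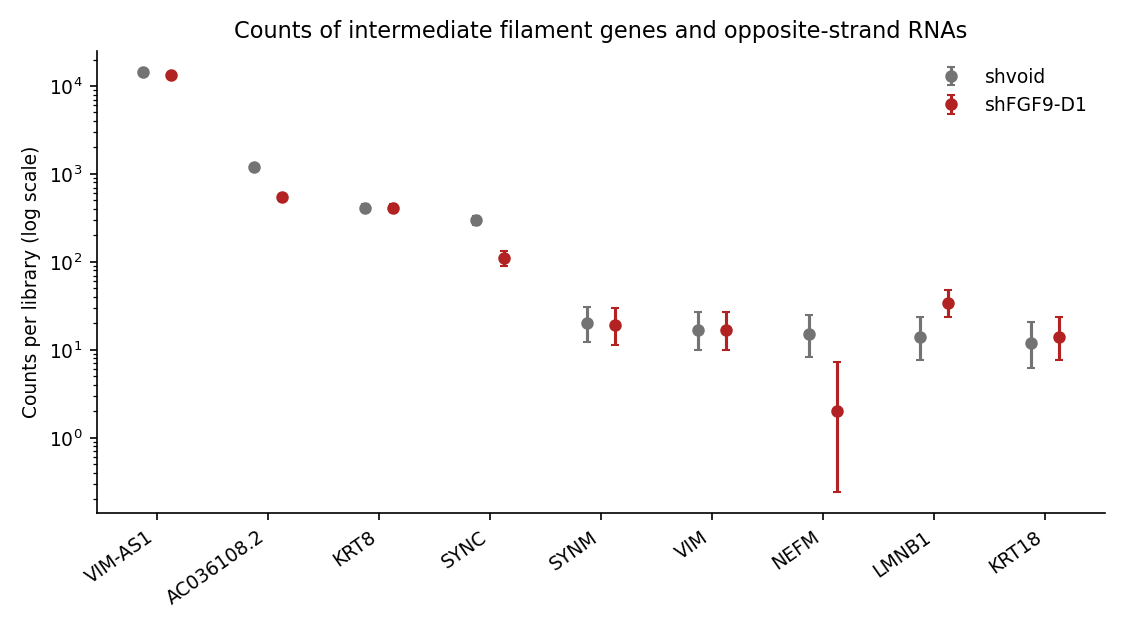
Unscaled counts of the 9 genes (log axis) in the single shvoid library (grey) and the single shFGF9-D1 library (red), with bars for exact Poisson 95% intervals of counting error. VIM-AS1 stands at 14278 and 13214 counts, the coding genes VIM, SYNM and KRT18 between 12 and 20, and AC036108.2 and SYNC are visibly lower in red.

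Per length, VIM-AS1 had the highest level of the 9 genes in both libraries. In FPKM, the unit in which the authors deposited levels scaled for transcript length and depth, the order in the shvoid library was VIM-AS1 (19744), KRT8 (1410), AC036108.2 (801), SYNC (195), VIM (24.6), LMNB1 (13.6), KRT18 (12.2), NEFM (7.58) and SYNM (5.42). With the counting interval of each gene carried over to its FPKM, the levels from VIM-AS1 down to VIM each stood apart from the next, whereas VIM and LMNB1, LMNB1 and KRT18, KRT18 and NEFM, and NEFM and SYNM had overlapping intervals. In the shFGF9-D1 library the order was VIM-AS1 (19572 FPKM), KRT8 (1619), AC036108.2 (402), SYNC (73.2), VIM (37.4), LMNB1 (33.3), KRT18 (18.6), SYNM (5.00) and NEFM (1.20). There the intervals of VIM and LMNB1, of LMNB1 and KRT18, and of SYNM and NEFM overlapped.

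VIM (ENSG00000026025, chromosome 10, 17228259 to 17237593, plus strand) had 17 counts in the shvoid and 17 in the shFGF9-D1 library. The log2 ratio was 0.08 (interval -0.98 to 1.14), so a difference of up to about 2-fold either way was not detectable at these counts. Its FPKM was 24.6 and 37.4, a difference of 0.58 as log2(FPKM + 1) for the same number of counts. VIM-AS1 (ENSG00000229124, chromosome 10, 17214239 to 17229985, minus strand, annotated as antisense) had 14278 counts in the shvoid and 13214 in the shFGF9-D1 library. It had rank 3 among all genes in each library and took 2.75% and 2.63% of all counts. The log2 ratio was -0.03 (interval -0.06 to 0.00), and -0.11 with DESeq2 size factors.

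The FPKM of VIM-AS1 was 802 times that of VIM in the shvoid library and 523 times in the shFGF9-D1 library. VIM gave 0.119% of the pair's counts in the shvoid library (exact Clopper-Pearson 95% interval 0.0693% to 0.190%) and 0.128% in the shFGF9-D1 library. A further antisense gene, AL133415.1 (ENSG00000234961), shares 619 bases in 3 blocks with VIM exons downstream of those opposite VIM-AS1, 87.7% of its own exon sequence. It had 109 and 101 counts, an FPKM of 426 and 392, and a log2 ratio of -0.03 (interval -0.43 to 0.38). Both RNAs opposite the vimentin gene thus had higher levels per length than VIM in each library, and neither differed by 2-fold between them.

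SYNM (ENSG00000182253, chromosome 15, 99098217 to 99135593, plus strand) had 20 counts in the shvoid and 19 in the shFGF9-D1 library, with an FPKM of 5.42 and 5.00. The log2 ratio was 0.01 (interval -0.98 to 0.99). The genes opposite synemin were both lower in the shFGF9-D1 library. AC036108.2 (ENSG00000261054, listed as SYNM-AS2 in the gene name table used, 99128832 to 99131806, minus strand) had 1191 counts in the shvoid and 542 in the shFGF9-D1 library. It was 2.08-fold lower, with a log2 ratio of -1.05 (interval -1.20 to -0.91), and moved from rank 59 to rank 159 among all genes. The interval reaches past the 2-fold line, and from the deposited FPKM of 801 and 402 the difference was -0.99 as log2(FPKM + 1), just short of 2-fold.

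AC036108.1 (ENSG00000259475), an antisense gene on the minus strand, shares with SYNM 137 bases at its start, all coding in SYNM. It had 18 counts in the shvoid and 6 in the shFGF9-D1 library (log2 ratio -1.50, interval -3.12 to -0.11) and was called lower. Its FPKM was 56.3 and 19.4. The share of SYNM in the counts of SYNM and AC036108.2 was 1.65% in the shvoid library (interval 1.01% to 2.54%). In the shFGF9-D1 library it was 3.39% (interval 2.05% to 5.24%), and the 2 intervals overlapped. If the 3 genes are summed, since their strands cannot be separated with certainty, the counts were 1229 and 567 and the log2 ratio was -1.03 (interval -1.18 to -0.89). Most of the summed counts were from AC036108.2 (1191 and 542), so the summed ratio is close to that of AC036108.2. The interval of SYNM alone, -0.98 to 0.99, overlapped that of the sum.

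SYNC (ENSG00000162520, chromosome 1, 32680360 to 32703596, minus strand) had 297 counts in the shvoid and 110 in the shFGF9-D1 library, and its Poisson intervals of 264 to 333 and 90.4 to 133 did not overlap. It was 2.55-fold lower, with a log2 ratio of -1.35 (interval -1.68 to -1.03), the 1 case in the set whose whole interval lay past 2-fold. Its FPKM was 195 and 73.2, and it moved from rank 282 to rank 690. Of the coding filament genes in the set, SYNC and LMNB1 were the ones with at least 10 counts in each library that were called.

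RBBP4, opposite SYNC, had 125 counts in the shvoid and 76 in the shFGF9-D1 library. Its log2 ratio was -0.64 (interval -1.07 to -0.21), under 2-fold, with an FPKM of 43.2 and 24.8. The shared exon makes up 48.9% of the exon sequence of SYNC and is untranslated in RBBP4, apart from 18 bases that are coding in some of its transcripts. SYNC gave 70.4% of the pair's counts in the shvoid library (interval 65.8% to 74.7%) and 59.1% in the shFGF9-D1 library (interval 51.7% to 66.3%). The sum of the pair was 422 and 186 counts, a log2 ratio of -1.10 (interval -1.36 to -0.85).

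**Figure D3:**
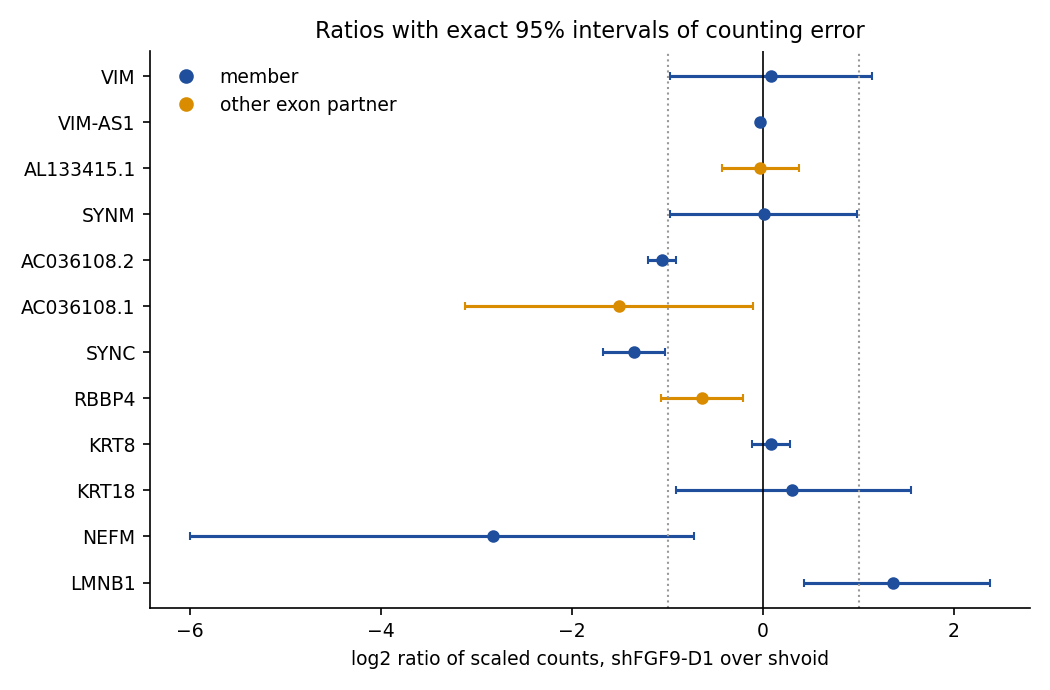
Log2 ratio of TMM-scaled counts, shFGF9-D1 over shvoid, 1 library each, for the 9 genes (blue) and other genes sharing exon with them (orange), with exact 95% intervals of counting error as bars and 2-fold marked by dotted lines. SYNC lies wholly past 2-fold lower, AC036108.2 lies across that line at -1.05, LMNB1 is at 1.36, and VIM, SYNM, KRT8 and KRT18 span 0.

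KRT8 (ENSG00000170421, chromosome 12, 52897187 to 52949954, minus strand) had 409 counts in the shvoid and 410 in the shFGF9-D1 library, with a log2 ratio of 0.09 (interval -0.12 to 0.29). Its obligate partner KRT18 (ENSG00000111057, 52948871 to 52952901, plus strand) had 12 and 14 counts, with a log2 ratio of 0.30 (interval -0.92 to 1.55). The keratins thus showed no 2-fold difference between the libraries, within intervals that for KRT18 leave room for one.

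Within each library the keratin pair was far from equal. The FPKM of KRT8 was 1410 in the shvoid library and that of KRT18 was 12.2, a ratio of 116, and in the shFGF9-D1 library the values were 1619 and 18.6, a ratio of 87.0. KRT18 gave 2.85% and 3.30% of the pair's counts. Each gene is the annotated opposite-strand partner of the other, over 525 shared exon bases, of which 375 code for keratin 18. The 50 pseudogenes named after KRT8 summed to 14 and 13 counts, few beside the 409 and 410 of KRT8. The 67 named after KRT18 summed to 17 and 22, more than the 12 and 14 of KRT18 itself. The part of these near copies in the low KRT18 count was not tested. The handling of reads that match several copies is not stated in those sources.

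**Figure D4:**
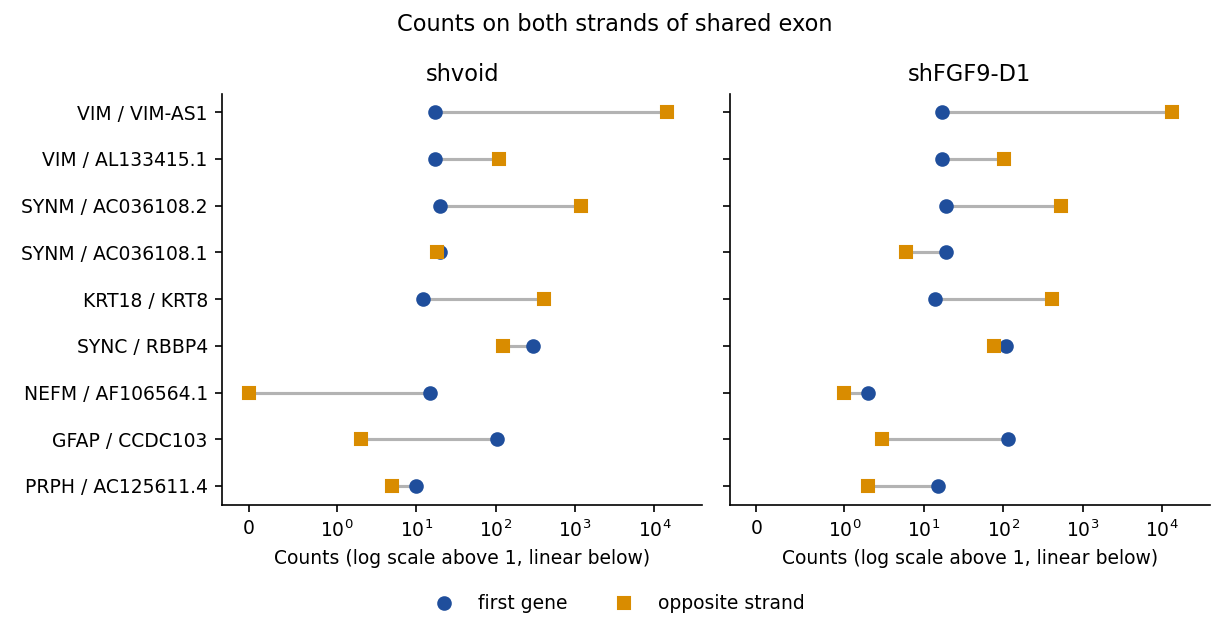
Counts of filament genes (blue circles) and of the genes that share exon with them on the opposite strand (orange squares) in the shvoid (left) and shFGF9-D1 (right) libraries, 1 library each, not scaled for length, on an axis that is linear under 1 and logarithmic above. For VIM with VIM-AS1, SYNM with AC036108.2 and KRT18 with KRT8 the square lies far to the right, whereas for SYNC, NEFM, GFAP and PRPH the circle is the higher one in both panels.

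FPKM divides the count by transcript length, so count and FPKM together give a rough length for each gene. The factor between them was calibrated on genes with a single annotated transcript of at least 1000 bases and at least 30 counts, 259 in the shvoid and 248 in the shFGF9-D1 library. Among these genes of known length, the central 90% of the estimates ran from 0.415 to 1.61 times the annotated length in the shvoid library, with a similar range in the other. For KRT8 the count and FPKM implied 534 bases in the shvoid library (range 331 to 1286, from the central 90% of the calibration genes) and 484 bases in the shFGF9-D1 library (range 322 to 1049). The annotated KRT8 transcripts run from 250 to 2862 bases. A KRT8 transcript of 1882 bases, with 9 exons and none of them shared with KRT18, lay outside the range in both libraries, whereas the transcript of 542 bases, of which 452 are shared with KRT18, lay inside it. KRT8 transcripts of 523 and 507 bases, which share 0 and 239 bases with KRT18, lay in the range as well. The length alone thus does not name a transcript. Since the calibration genes had a single transcript of at least 1000 bases, the range was not checked for shorter transcripts or for genes with several.

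For the other 8 genes of the set the range reached at least 1 annotated transcript. VIM-AS1 had 1331 and 1289 implied bases, close to its transcript of 1351 bases, which shares no exon base with VIM, while its other transcript, of 918 bases, holds the 641 shared bases and was also in the range. The genes with a single transcript fell on either side of it: AC036108.2 had 2737 and 2571 implied bases for 2562 annotated, and AL133415.1, opposite VIM, had 471 and 491 for 706. For SYNC the values were 2797 and 2871 bases, against annotated transcripts of 552 to 3398. For VIM they were 1265 bases (range 785 to 3047) and 868 bases (range 578 to 1882), ranges that overlap.

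**Figure D5:**
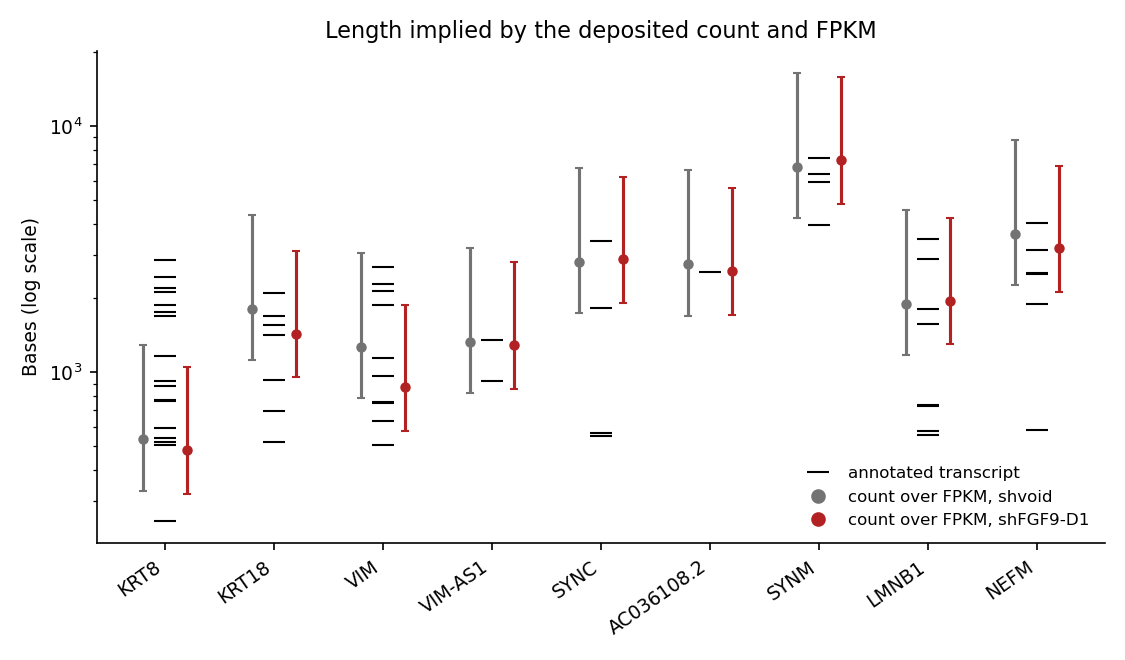
Transcript length implied by the count and FPKM of each gene (points, log axis, bases) in the shvoid (grey) and shFGF9-D1 (red) libraries, with the range from the central 90% of the calibration genes as bars and each annotated transcript as a black dash. KRT8, at 534 and 484 bases, lies among its short transcripts, and AC036108.2, at 2737 and 2571, lies by its only one.

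NEFM (ENSG00000104722, chromosome 8, 24913012 to 24919098, plus strand) had 15 counts in the shvoid and 2 in the shFGF9-D1 library, with an FPKM of 7.58 and 1.20. The log2 ratio was -2.82 with an interval of -6.00 to -0.72, the widest in the set, since it rests on 2 counts. The call was lost with a minimum of 50 counts and in the edgeR exact tests with an assumed variation. AF106564.1, which shares 1706 exon bases with NEFM on the minus strand, had 0 and 1 counts. The other neurofilament subunits were under 10 counts, with NEFL at 3 and 7 and NEFH at 7 and 4, and none of the 9 neuronal markers reached 10.

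LMNB1 (ENSG00000113368, chromosome 5, 126776623 to 126837020, plus strand) had 14 counts in the shvoid and 34 in the shFGF9-D1 library. It was 2.57-fold higher, with a log2 ratio of 1.36 (interval 0.43 to 2.37), and its FPKM was 13.6 and 33.3. Its call was likewise lost with the higher minimum and in both exact tests. It was the 1 gene of the set without an exon partner. AC137794.1, which starts 136 bases away on the other strand and shares no exon with it, had 0 counts in both libraries. The other lamins stayed under 10 counts: LMNA had 5 and 5 and LMNB2 had 7 and 6, counts at which a 2-fold difference was not detectable.

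Genes for proteins of the lamina and nuclear envelope, and for enzymes that modify lamins such as FNTB and RCE1, were examined beside LMNB1. Of 17 such genes, 7 reached 10 counts, and none was called higher or lower. Their median log2 ratio was 0.41, against 0.05 over all 4000 genes. TMPO, a lamin-binding nuclear membrane protein, had 585 and 451 counts (log2 ratio -0.29, interval -0.47 to -0.11), and TMPO-AS1 on the opposite strand had 212 and 99 (log2 ratio -1.02, interval -1.38 to -0.67) and was called lower. SUN2, which links the lamina to the cytoskeleton, had 150 and 188 counts (log2 ratio 0.41, interval 0.09 to 0.73), beside 69 and 74 for GTPBP1, 64 and 83 for AL021707.5, 8 and 11 for AL021707.3 and 0 and 0 for AL021707.1 on the opposite strand. BANF1, a DNA-bridging protein of the nuclear envelope, had 13 and 18 counts, with EIF1AD opposite it at 0 and 0. TOR1AIP1, a lamina-associated membrane protein, had 11 and 12 counts, and AL353708.3 opposite it had 206 and 213.

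In the whole intermediate filament family of 70 genes, 34 had a count and 10 reached 10 counts. The rule called 1 of the 10 higher and 2 lower, beside 4.70% and 5.38% of all genes tested. The called genes were all from the set chosen on its values, so nothing is read from this share. The median log2 ratio of the 10 was 0.08, beside 0.05 over all genes. The family summed to 949 counts in the shvoid and 779 in the shFGF9-D1 library, or 1828 and 1549 CPM. A total of 36 family genes were at 0 in both libraries, among them DES, the filament of muscle, and the epidermal keratins KRT1, KRT14 and KRT16.

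Outside the set, 3 family genes reached 10 counts. GFAP, the filament of astrocytes, had 104 counts in the shvoid and 114 in the shFGF9-D1 library (log2 ratio 0.21, interval -0.18 to 0.61), and CCDC103 and FAM187A, each of which shares 2230 exon bases with it, had 2 and 3 and 0 and 0 counts. PRPH, the filament of peripheral neurons, had 10 and 15 counts (log2 ratio 0.67, interval -0.58 to 1.98), and AC125611.4 opposite it had 5 and 2. KRT80, an epithelial keratin with no exon partner, had 10 and 6 (log2 ratio -0.66, interval -2.40 to 0.95). In GFAP and PRPH the coding gene had a higher count and FPKM than its opposite-strand partners, the reverse of VIM with VIM-AS1, SYNM with AC036108.2 and KRT18 with KRT8.

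Family genes that share exon with an opposite-strand gene were counted more often than the rest. Of 23 with such a partner, 8 reached 10 counts (34.8%), and of 47 without one, LMNB1 and KRT80 did (4.26%). Among all nuclear protein-coding genes the shares were 29.5% of 6614 and 5.32% of 13164. With at least 200 shared bases required, they were 53.3% of 15 and 3.64% of 55 in the family, and 39.8% of 3988 and 6.76% of 15790 among all nuclear coding genes. The difference in the family thus ran the same way as in all coding genes, and no test was made of it.

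Proteins that tie filaments to each other or to junctions were mostly too rarely counted to compare. Of 17 filament linker genes, 11 had a count and 3 reached 10 counts (median log2 ratio 0.23). DST, a large linker of filaments to hemidesmosomes and the cytoskeleton, had 3 counts in the shvoid and 13 in the shFGF9-D1 library (log2 ratio 2.20, interval 0.33 to 4.65) and was called higher, with an FPKM of 5.09 and 12.0. PLEC, or plectin, had 9 and 10 counts while its FPKM was 6.15 and 1.03. TCHP, or trichoplein, a keratin-binding protein, had 641 and 612 counts (log2 ratio 0.02, interval -0.15 to 0.18), and GIT2, which shares 2996 exon bases with it, had 0 and 2. FLG, the filament-aggregating protein of skin, had 7 and 2 counts, and FLG-AS1 opposite it had 0 and 1.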

How the data were processed

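Total RNA of C28/I2 cells was sequenced in 1 shvoid and 1 shFGF9-D1 library. The submitters' processing notes name GRCh38.p14 and the tools HISAT2, Cuffdiff, Cufflinks (2.2.1) and bcl2fastq (2.1.7). How strand was set, and what was trimmed or filtered, is not stated in them or in the study's methods. Per gene, the authors deposited estimated counts, unscaled, and FPKM, which they scaled for length and depth. The counts were rounded to integers and scaled by TMM in edgeR 4.0.16 (R 4.3.3), with factors of 1.01 and 0.988. Ratios were given exact Clopper-Pearson 95% intervals and counts exact Poisson 95% intervals (scipy 1.17.1, Python 3.11.15). Both cover counting error only. No fold was given where both counts were at or under a floor of 3 counts. The call rule was tested on simulated counts with counting error only, with changes larger than 2-fold put into well-counted genes. That simulation did not cover changes near 2-fold, changes in genes with few counts such as NEFM and LMNB1, or variation between cultures. With 1 library per condition, p-values were used only in an alternative that assumes a variation between replicates.

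Genes were matched by identifier to GENCODE release 29 (57882 of 58220), whose exons gave coordinates and opposite-strand overlap. Of the matched genes, 56637 lay within the deposited locus. The genes of the set and the 9 gene lists were chosen with earlier results of these data known. The genes named are the set, every gene sharing exon with it, family genes with at least 10 counts and the 4 genes with most counts in each other list; genes named outside this rule were chosen after their values were seen. Of each marker list the text names the genes that bear on the cell type label. Tried as alternatives were size factors from DESeq2 1.42.0, total counts, TMM over nuclear genes, other count minimums, other call rules, deposited FPKM (pseudocounts of 1 and 0.1), and summed strands.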

Additional observations from a re-analysis of the deposited data

How the results depend on the processing

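No paired analysis was possible because each condition had 1 library, and for the same reason no replicate could be left out. Total counts, DESeq2 size factors and TMM over nuclear genes each left 1 gene of the set called higher and 3 lower, and called 163, 148 and 184 of all genes higher and 226, 257 and 217 lower. With a minimum of 50 counts, 0 genes of the set were called higher and 2 lower, against 38 higher and 45 lower in all, since LMNB1 and NEFM have fewer counts. With the 2-fold difference alone, 303 genes were higher and 376 lower, with the set at 1 and 3. An edgeR exact test (Benjamini-Hochberg adjusted p under 0.05, at least 2-fold) that assumed a coefficient of variation of 0.1 between replicates called 0 of the set higher and 2 lower, and 39 and 46 of all genes. With 0.4 it called 0 genes in the set and 0 in all, in either direction. Of 53 alternative values of the ratios in the set, 48 gave the same reading as the main value, 2 were weaker and 3 moved. None of the called ratios changed sign. AC036108.2 fell short of 2-fold with FPKM, at -0.99 with either pseudocount. VIM-AS1 moved to -0.07 with total counts and -0.11 with DESeq2 size factors, and SYNM to -1.03 when summed with the RNAs opposite it, most of whose counts are from AC036108.2. The family median of 0.08 stayed at 0.08 with no minimum on counts and was 0.21 without the chosen genes. Few counts limit genes such as NEFM, VIM, SYNM and KRT18, and 3 counts amount to 5.78 and 5.97 CPM. Whether depth or strand handling left these genes low was not tested.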

Other observations

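Genes of the other cytoskeletal systems, actin and tubulin, were examined in the same way. Of 21 such genes, 19 had a count and 12 reached 10 counts. The rule called 1 of the 12 higher and 0 lower, beside 4.70% and 5.38% of all genes tested, and their median log2 ratio was 0.33, beside 0.05 over all genes. The list summed to 861 counts in the shvoid and 868 in the shFGF9-D1 library. MYL6, a myosin light chain, had 515 and 464 counts (log2 ratio -0.07, interval -0.25 to 0.12), beside 6 and 2 for SMARCC2 and 4 and 4 for AC034102.5 on the opposite strand. TUBB6, a beta tubulin, had 151 and 210 counts (log2 ratio 0.56, interval 0.25 to 0.87), and AFG3L2, which shares 837 exon bases with it, had 128 and 163 (log2 ratio 0.43, interval 0.09 to 0.78). ACTB, or beta-actin, had 47 and 31 counts (log2 ratio -0.52, interval -1.22 to 0.17). TUBB4B, the 1 gene of the list that was called, had 6 and 20 counts (log2 ratio 1.82, interval 0.45 to 3.42), and it was named after its values were seen. FLNA, or filamin A, had 29 and 26 counts, while its FPKM was 5.51 and 18.2, so the deposited units gave different ratios for this gene.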
